A study of Equus caballus with 6 samples.

Results

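Among 4936717 distinct small RNA sequences of 25 to 32 nt from the testis of the Mongolian horse, 1213150 (24.6%) had an opposite-strand partner in the same table. A sequence was taken as a member when it contained a stretch of 20 nt whose reverse complement occurred exactly in another sequence, and stretches equal to their own reverse complement were left out. No read count entered this choice. The reads came from 3 libraries of mature testis and 3 libraries of immature testis of the same breed, and the labels record no age, genotype or stage of the germ cells. They number the libraries as replicates and do not say that each came from a separate animal, so p-values cover the spread among these libraries alone. With 3 libraries against 3, an exact two-sided permutation test cannot go below p = 0.1.

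Piwi-interacting RNAs (piRNAs) guide PIWI proteins in the germ cells of animals and are best known for silencing transposons. In the ping-pong cycle a piRNA guides a PIWI protein to cut a complementary transcript, and the cut product becomes the 5′ end of a new piRNA on the other strand, so that the 5′ ends of both overlap by 10 nt. A U at the first position of the guide then stands opposite an A at position 10 of the partner. The mammalian testis also makes pachytene piRNAs, which come from long single-stranded precursors and are mostly longer than those of earlier germ cells. RNase III enzymes such as Dicer, in contrast, cut duplexes that leave 2 nt overhangs at both 3′ ends. A 20 nt stretch is longer than the ping-pong overlap, so a pair found by the rule overlaps by far more than 10 nt, and its 5′ ends lie farther apart.

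The sequences below are the pairs in which the lesser partner had the highest mean level over the 6 libraries, and the last pair is the leading one with 2 nt overhangs at both 3′ ends. They are shown because both strands led the pairs by this measure, although several were read mainly at 1 stage. The fourth pair was complete in 3 libraries only. Each is written 5′ to 3′ with T for U as in the table, and capitals mark the longest stretch that is exactly complementary to the partner.
uniq_227817: ACAGAGAGTTTTGTCTGCTGCCTGGCGGA
uniq_233852: TCCGCCAGGCAGCAGACAAAACTCTCTGTc
uniq_2334015: TTTCTTTGCAGGCCTGATCTGGCTGAA
uniq_2345688: TTCAGCCAGATCAGGCCTGCAAAGAAAct
uniq_224932: ACAGACTGTAGAAGATGCCAATAgct
uniq_238060: TATTGGCATCTTCTACAGTCTGTggtt
uniq_4002205: tCTGATTGCAGAGCAATTTACActgat
uniq_2490463: TGTAAATTGCTCTGCAATCAGctggggagg
uniq_1411900: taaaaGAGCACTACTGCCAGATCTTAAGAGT
uniq_1425787: tagACTCTTAAGATCTGGCAGTAGTGCTC
uniq_271313: TAACCACAGACTGTAGAAGATGCCAAta
uniq_333187: TTGGCATCTTCTACAGTCTGTGGTTAgt
The 5′ ends of these pairs lay 29, 27, 23, 22, 34 and 26 nt apart, in the order printed. The third pair and the last one cover the same complementary region with shifted ends, so they are not independent examples. No genome or transposon sequence was used, so the loci of these sequences are not given here.

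Abundant sequences often faced rare ones, and the rule draws its line at a single base. A sequence just outside it and its one partner are shown for that reason, with the 19 nt complementary stretch in capitals, followed by a member that shares its first 28 nt and reaches 20 nt with the same partner.
uniq_2076883: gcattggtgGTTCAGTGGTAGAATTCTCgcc
uniq_12023793: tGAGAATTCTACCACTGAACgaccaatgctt
uniq_3256598: gcattggtgGTTCAGTGGTAGAATTCTCA
The partner was read once in the whole table. The first of the 3 sequences reached 7588, 986 and 1690 CPM (its reads per 1000000 reads of a library) in the mature libraries and 32475, 60530 and 35575 CPM in the immature ones, and it is no member. No tRNA, miRNA or other annotated RNA sequences were at hand to match these sequences to, so whether they are piRNAs was not tested, and the table's sequences are called piRNAs here only as the series' title does. Sequences with a longest stretch of exactly 20 nt numbered 135731 and held 4.59% of mature and 2.84% of immature reads. Those with 19 nt numbered 128852, are no members, and held 5.25% of mature and 12.6% of immature reads. The first base was U in 81.3% of the sequences just inside and 81.2% of those just outside, and their GC contents were 47.0% and 47.3%.

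The share of reads that fell on members was higher in the mature than in the immature libraries under the 20 nt rule, and this direction depended on the rule. It was 32.98%, 35.1% and 34.7% of reads in the mature libraries and 29.1%, 27.9% and 27.2% in the immature libraries. The groups did not overlap, and the difference of means was 6.19 percentage points (34.3% ± 1.12 against 28.1% ± 0.97, SD, n = 3 each; exact permutation p = 0.1). With an 18 nt stretch the shares were 42.7% in mature and 43.0% in immature testis, a difference of −0.326 points (exact permutation p = 0.7). For members in pairs with fewer than 10 pairs on both sides they were 1.27% and 6.69%, a difference of −5.42 points (exact permutation p = 0.1). Library totals were 4032042 to 4550970 reads in the mature group and 1382083 to 2347351 in the immature group. The 95% Wilson interval of a library's share under the 20 nt rule was thus at most 0.0757 percentage points to each side. Such intervals cover counting error only, since the reads carry no molecular identifiers. Counted as distinct sequences, members made up 26.6% of those detected in mature and 27.7% in immature libraries, and the groups overlapped (exact permutation p = 0.3).

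Most members were rare, and most were seen at 1 stage. A single read in the whole table was recorded for 68.4% of members, compared with 79.7% of the other sequences. Reads in mature testis only were recorded for 517881 members, reads in immature testis only for 589844, and reads in both for 105425, of which 6593 had reads in all 6 libraries. A sequence read once can only be seen at 1 stage. The same counts over all sequences are not given here, so being seen at 1 stage is not shown to be a trait of members. A member detected in a mature library had 4.65, 4.66 and 5.12 reads on average, against 1.69, 1.79 and 1.60 reads in the immature libraries. The other sequences had 3.27, 3.18 and 3.56 reads in mature and 1.62, 1.84 and 1.54 reads in immature libraries. The mature libraries were also the deeper ones, so this stage difference is not one of members alone. Sequences of low complexity, defined as those with under 10 different 3-mers, were 587 of the members (0.0484%), compared with 0.019% of the other sequences.

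The members formed 6171103 pairs, a pair being 2 sequences complementary at a given distance between their 5′ ends. The median member had 3 pairs, 403697 members (33.3%) had 1, and 17616 (1.45%) had 100 or more, up to 2588. End variants of an abundant sequence each count as a member, so pairs share their sequences and are no independent observations. Pairs whose partners never met in any library made up 53.9%, and 1341 pairs were found complete in all 6 libraries.

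Complete pairs numbered 468339, 532792 and 591503 in the mature and 488869, 754820 and 371900 in the immature libraries. A partner in the same library was present for 52.0%, 53.8% and 66.2% of member reads in mature and for 65.7%, 65.2% and 57.2% in immature testis. These groups overlapped (57.3% ± 7.69 against 62.7% ± 4.79, SD, n = 3 each; exact permutation p = 0.4). When every library was thinned to the smallest total, 1382083 reads, the means were 34.1% in mature and 58.5% in immature testis and the groups no longer overlapped (exact permutation p = 0.1). Partners were often the rarer side or absent from the library, more so in mature testis. Members whose partners had no read in the library were counted here too, and their part in the stage difference was not tested. Sequences whose partners together had fewer reads than they had themselves carried 87.0%, 86.4% and 86.1% of member reads in mature and 56.9%, 58.5% and 62.3% in immature libraries (exact permutation p = 0.1). Depth differed between the groups, and with every library thinned to 1382083 reads the means were 89.2% ± 0.54 in mature and 61.4% ± 3.91 in immature libraries (SD, n = 3 each; exact permutation p = 0.1). Pairs with 1 read on each side made up 45.3% ± 1.21 of the complete pairs in mature and 56.5% ± 2.54 in immature libraries (SD, n = 3 each). After thinning these shares were 52.2% ± 0.99 and 57.7% ± 2.28, so the difference fell to −5.46 points, against −11.2 points at full depth (exact permutation p = 0.1 for each).

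Members were longer in mature than in immature testis, as the other sequences were. Member reads of 29 to 32 nt were 77.8%, 76.9% and 76.1% in mature and 30.4%, 32.9% and 32.1% in immature testis, a difference of 45.2 percentage points (exact permutation p = 0.1). The most frequent length was 30 nt in mature testis, at 28.2% of member reads, followed by 29 nt at 25.1% and 31 nt at 20.02%. It was 27 nt in immature testis, at 28.4%, followed by 26 nt at 20.9%. Among the other sequences, lengths of 29 to 32 nt made up 68.6% ± 1.14 of the reads of mature libraries and 37.9% ± 3.72 of those of immature libraries (SD, n = 3 each), and 68.3% and 28.6% once sequences with an 18 or 19 nt stretch were left out. The difference between the stages is thus not one of members alone, and whether it differs between members and others was not tested. A longer sequence contains more stretches of 20 nt, so lengths of members and other sequences were not compared by a test. At a given length, members were 36.2% ± 2.14 of the 31 nt reads in mature and 12.0% ± 1.62 in immature testis, although they were 30.4% and 36.5% of the distinct 31 nt sequences (SD, n = 3 each). The sequence just outside the rule, uniq_2076883, is 31 nt long and alone held, on average, 0.342% of the reads of a mature library and 4.29% of those of an immature library.

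Members mostly began with U, the base preferred by PIWI proteins at the 5′ end of the guide. The share of member reads with a first U was 89.9%, 90.2% and 90.0% in mature and 80.7%, 83.4% and 82.9% in immature testis, 7.68 points higher in mature testis without overlap (90.0% ± 0.15 against 82.3% ± 1.41, SD, n = 3 each; exact permutation p = 0.1). The other first bases were A in 2.92%, C in 4.85% and G in 2.22% of member reads in mature, against 6.53%, 7.67% and 3.47% in immature testis. Counted once per distinct sequence, a first U was found in 80.0% and 78.6%, and the groups overlapped (exact permutation p = 0.2). The first U was less frequent in members with many pairs. Reads of members with 1 pair began with U in 91.9% in mature and 85.6% in immature testis, and those of members with 100 or more pairs in 72.1% and 68.1%.

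Among member reads that did not begin with U, A at position 10, the mark of the secondary piRNA in the ping-pong cycle, was present in 49.8%, 51.8% and 49.7% in mature and 53.1%, 55.2% and 56.8% in immature testis. The difference was −4.54 points, without overlap (50.5% ± 1.17 against 55.0% ± 1.86, SD, n = 3 each; exact permutation p = 0.1). By distinct sequence the means were 42.5% in mature and 52.4% in immature testis. With an 18 nt stretch the direction turned, at 51.0% in mature and 21.0% in immature testis, a difference of 29.9 points (exact permutation p = 0.1). The GC content of member reads averaged 45.6% in mature and 46.8% in immature testis (exact permutation p = 0.1). By distinct sequence this direction turned, at 47.5% and 47.1% (exact permutation p = 0.1). For members in pairs with fewer than 10 pairs on both sides the difference was 0.0736 points (exact permutation p = 0.8).

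The 10 nt ping-pong overlap was not part of the rule and was measured separately, although it too asks for complementary sequences in the table. For each library, member reads were counted whose opening 10 nt pair exactly with the opening 10 nt of some other sequence found there. From their share the mean for windows moved 1 to 5 nt along the read was subtracted. The excess was 17.8, 20.2 and 19.03 percentage points in mature and 20.7, 20.9 and 20.9 points in immature testis. Every mature library lay below the immature ones (19.03 ± 1.21 against 20.8 ± 0.11, SD, n = 3 each; exact permutation p = 0.1). The unshifted shares behind these were 61.3% in mature and 65.6% in immature testis, and the shifted ones 42.3% and 44.7%. With the window shifted in the partner in place of the read, the excess fell to 5.50 points in mature and 4.52 points in immature testis. The sign of the stage difference then turned, to 0.974 points higher in mature testis (exact permutation p = 0.6). With an 18 nt stretch it turned as well, to an excess of 18.4 points in mature and 7.17 points in immature testis (exact permutation p = 0.1).

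The 5′ ends of complete pairs lay 20 to 44 nt apart, farther in mature testis. The mean distance was 28.7, 28.5 and 28.7 nt in mature and 27.8, 27.4 and 27.5 nt in immature testis, 1.07 nt more in mature testis without overlap (exact permutation p = 0.1). A distance of 30 nt was the most frequent in every mature library, at 7.32%, 7.28% and 7.43% of pairs, against 7.49%, 7.25% and 8.12% in immature testis. A distance of 29 nt made up 6.38%, 6.03% and 5.99% of pairs in mature and 10.3%, 8.64% and 8.72% in immature testis, where it was the most frequent in every library. Pairs 35 nt apart were 4.55% ± 0.04 of pairs in mature and 2.71% ± 0.16 in immature testis, and those of 40 nt 0.906% and 0.215% (SD, n = 3 each). Long distances need long sequences, which were more frequent in mature testis, and the part of length in this difference was not tested. When sequences sharing their first 20 nt were counted as 1 end, 30 nt led in both groups, at 7.02% in mature and 7.86% in immature testis, and 29 nt followed in immature testis at 7.67%. The leading distance depended on the pairs counted. In pairs with fewer than 10 pairs on both sides, 20 nt led in every library, at 7.76% in mature and 9.81% in immature testis. A distance of 30 nt was found in 6.53% and 7.53% of those pairs.

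The complementary overlap itself differed less between the stages than the distance. It averaged 24.5 nt in mature and 24.2 nt in immature libraries, with 26 nt the most frequent in both groups by mean share, at 13.7% ± 0.149 and 16.1% ± 0.759 of pairs (SD, n = 3 each). Overlaps of 28 nt accounted for 7.29% of pairs in mature testis and 4.43% of those in immature testis. Complementarity ran over the whole overlap in 49.7% and 47.2% of pairs, and in the rest it stopped at a mismatch beyond the 20 nt required. Both sides were 29 to 32 nt long in 41.9% of pairs in mature and 16.8% in immature testis, and both were 25 to 28 nt long in 12.4% and 36.1%.

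Pairs with 2 nt overhangs at both 3′ ends, the geometry of a Dicer product, were a small minority. They made up 1.29%, 1.20% and 1.21% of complete pairs in mature and 1.65%, 1.61% and 1.66% in immature testis. The difference was −0.401 points, without overlap (1.24% ± 0.045 against 1.64% ± 0.025, SD, n = 3 each; exact permutation p = 0.1). Among symmetric pairs with 3′ ends from 6 nt recessed to 6 nt protruding, 2 nt had the highest share in each of the 6 libraries. The next highest share by group mean was that of ends recessed by 1 nt, at 1.18% and 1.55% of pairs in mature and immature testis. Symmetric 1 nt overhangs were 0.627% and 1.05% of pairs, and 3 nt overhangs 0.942% and 1.11%.

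In pairs, a first U on both sides was the commonest combination. It was present in 53.3%, 54.0% and 51.3% of complete pairs in mature and 44.7%, 48.0% and 50.9% in immature testis (52.9% ± 1.39 against 47.9% ± 3.09, SD, n = 3 each; exact permutation p = 0.1). The groups came close, at 51.3% for mature replicate 3 and 50.9% for immature replicate 3, and when pairs of 5′ ends were counted the difference turned to −1.30 points, at 42.8% in mature and 44.2% in immature testis (exact permutation p = 0.5). One U and 1 other base occurred in 39.5% and 42.2% of pairs, most often with C, at 17.0% in mature and 18.4% in immature testis, and then with A, at 13.6% and 15.9%. No U on either side was found in 7.56% and 9.88%.

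Members were set against the other sequences of the same library, with an exact two-sided sign-flip permutation test over the 6 libraries, whose smallest p is 0.0312. Both ping-pong marks, A at position 10 and the 10 nt excess, were higher in members, but this comparison is not independent of the rule. The rule and the excess both ask for complementary sequences in the table. An A at position 10 also pairs with a first U, the commonest first base, so the marks are not separate evidence. How much of the gaps comes from this overlap of measures was not tested. A at position 10 among reads without a first U was 24.5 points more frequent in members, higher in 6 of 6 libraries (p = 0.0312, exact), with 50.5% in members and 40.03% in the other sequences in mature testis, and 55.0% and 16.5% in immature testis. The 10 nt excess was 11.1 points larger in members, again in 6 of 6 libraries (p = 0.0312, exact). Members had an excess of 19.03 points and the other sequences one of 11.4 points in mature testis, and in immature testis these were 20.8 and 6.29 points. Both differences also held when each distinct sequence was counted once, at 10.6 and 3.04 points. They fell to 3.54 and 0.851 points when an 18 nt stretch made a member, which takes uniq_2076883 and similar sequences in as members, and neither passed the test then (exact permutation p = 0.594 and 0.844). For members in pairs with fewer than 10 pairs on both sides the difference in excess was 4.40 points (exact permutation p = 0.125). It was 0.208 points in mature and 8.59 points in immature testis. Without the sequences that have a longest stretch of 18 or 19 nt, the other sequences had A at position 10 in 34.6% and 30.4% of reads without a first U, and an excess of 10.8 and 13.0 points, in mature and immature testis.

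The gap between members and other sequences was smaller in mature testis for both marks under the 20 nt rule, by an amount that depended on the sequences near the line. The difference of the gaps, mature minus immature, was −28.1 points for A at position 10 and −6.97 points for the 10 nt excess (exact permutation p = 0.1 for each). Once sequences with an 18 or 19 nt stretch were left out of the others, these were −8.74 points (exact permutation p = 0.1) and 0.337 points (exact permutation p = 0.8). By distinct sequence they were −3.05 points (exact permutation p = 0.1) and −0.354 points (exact permutation p = 0.5). With an 18 nt stretch both turned, to 25.7 and 13.3 points (exact permutation p = 0.1 for each). The first base went different ways by read and by sequence. By reads, a first U was 4.96 points more frequent in members (p = 0.0938, exact), with gaps of 0.371 points in mature and 9.55 points in immature testis. Without the sequences with an 18 or 19 nt stretch among the others it turned to −1.83 points (p = 0.0312, exact), with gaps of −1.97 points in mature and −1.69 points in immature testis. With an 18 nt stretch as the rule it was −12.5 points (p = 0.0312, exact). By distinct sequence the difference was −7.14 points, lower in members in 6 of 6 libraries (p = 0.0312, exact). GC content differed by −0.50 points by reads, lower in members, and by 0.813 points by distinct sequence, higher in members (p = 0.0312, exact, for each).

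Single members were tested between the stages with edgeR's quasi-likelihood test, fitted on the whole table after its filter on low counts, with Benjamini-Hochberg adjustment over all 31788 sequences tested and a call at an adjusted p under 0.05. The filter left 12615 members, 1200535 members were too rare for it, and those left say nothing of the rest. Of the members tested, 4284 (34.0%) were called, against 30.4% of all sequences tested. Higher in mature testis were 1048 members (8.31%, against 8.41% of all tested), and higher in immature testis were 3236 (25.7%, against 21.9% of all tested). The median log2 fold change, mature over immature, was 0.54 among members tested and 0.62 among all. These calls use TMM normalization, whose factors were 2.38 to 2.62 in mature and 0.360 to 0.442 in immature libraries. On library totals instead, the median of all sequences moved up by 2.52 on the log2 scale, 12306 members were called against 98.1% of all tested, and 9335 of them were higher in mature (77.7% of all tested) and 2971 higher in immature testis (20.3% of all tested). The mature share of the called members was thus 24.5% with TMM and 75.9% with library totals, against 27.7% and 79.3% of the called sequences among all tested. All 1048 members called higher in mature testis with TMM were also called so on library totals, as were 2971 of the 3236 called higher in immature testis. Leaving out a library moved the count of 1048 most, which became 684, 2331 and 658 when immature replicate 1, 2 or 3 was dropped.

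Called members differed in length by direction. Lengths of 29 to 32 nt made up 90.6% of the members called higher in mature testis, 24.3% of those called higher in immature testis and 76.8% of those not called. A first U was present in 88.9%, 88.8% and 94.4% of these 3 sets. The same shares for other called sequences are not given here, so neither is shown to be a trait of members. Lengths of 29 to 32 nt also made up 68.6% of the reads of other sequences in mature and 37.9% in immature testis. Both partners of a pair were tested in 931 cases, made up of 550 members. Both were called higher in mature testis in 3 of these pairs and higher in immature testis in 628, 1 side alone was called in 162, neither in 138, and in 0 pairs were the partners called in opposite directions. The pairs share members, so they are no independent observations. These counts rest on the TMM calls and are not given on library totals. No chance level was set beside them, so whether partners change together was not tested.

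The pairs printed at the start give the pattern sequence by sequence. In the first, uniq_227817 had 7.49, 9.42 and 3.30 CPM in the mature libraries and 58.6, 51.1 and 17.1 CPM in the immature ones, without overlap. Its partner uniq_233852 had 0.725, 1.24 and 0.439 CPM in the mature libraries and 95.5, 14.1 and 5.47 CPM in the immature ones. Both fell in mature testis, with log2 fold changes of −5.25 ± 0.72 and −8.20 ± 0.85 (SE; edgeR adjusted p = 1.3e-12 and 9.62e-21) and −2.65 and −5.51 on library totals. The immature level of uniq_233852 rested on replicate 1, and its ratio of mean CPM, mature over immature, was 0.0209 with that library and 0.0821 without it.

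The second pair was found mainly in immature testis. The reads of uniq_2334015 were 4, 2 and 1 in mature and 187, 203 and 48 in immature libraries, or 0.561 ± 0.38 CPM against 84.9 ± 51.3 CPM (SD, n = 3 each). Those of its partner uniq_2345688 were 0, 1 and 2 in mature and 54, 138 and 19 in immature libraries, a pooled ratio of 0.0058 with an exact 95% counting interval from 0.00119 to 0.0172. Both were called lower in mature testis (edgeR adjusted p = 2.34e-24 and 1.18e-22). With so few reads in mature testis, single libraries moved the ratio of mean CPM, mature over immature. That of uniq_2334015 was 0.00661 in all and 0.00422 without mature replicate 1, and that of uniq_2345688 was 0.0062 in all, 0.0093 without mature replicate 1 and 0.00336 without mature replicate 3.

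In the third pair, uniq_224932 had 1.21, 3.72 and 2.42 CPM in the mature libraries and 65.1, 48.1 and 62.2 CPM in the immature ones. Its partner uniq_238060 had 3.87, 3.22 and 3.96 CPM in the mature libraries and 37.6, 41.7 and 17.1 CPM in the immature ones. Neither overlapped between the groups, and both were called lower in mature testis (log2 fold changes −7.17 and −5.72; edgeR adjusted p = 9.03e-19 and 5.94e-14). In the pair with 2 nt overhangs over the same region, uniq_271313 had 1.69, 3.97 and 1.54 CPM in the mature libraries and 11.6, 7.67 and 23.9 CPM in the immature ones and was called lower in mature testis (edgeR adjusted p = 3.83e-12). Its partner uniq_333187 had 1.45, 1.98 and 1.32 CPM in the mature libraries and 21.7, 5.96 and 2.05 CPM in the immature ones and did not pass the filter on low counts. Its ratio, mature over immature, was 0.16 in all and 0.395 without immature replicate 1.

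The fourth pair was found in mature testis. Both partners were complementary over 21 of the 22 nt of their overlap. The sequence uniq_4002205 had 28.3, 35.5 and 38.5 CPM in mature testis and 0 reads in all 3 immature libraries. It was at least 58.9-fold higher in mature testis, against a floor of 3 reads over the immature group, or 0.578 CPM (edgeR adjusted p = 3.96e-06). Its partner uniq_2490463 had 25.4, 34.0 and 30.5 CPM in the mature libraries and 0, 5.11 and 1.37 CPM in the immature ones, without overlap. It was not called with TMM (edgeR adjusted p = 0.241) and was called higher in mature testis on library totals (edgeR adjusted p = 1.5e-06). Its ratio of mean CPM was 13.9 in all, 9.25 when immature replicate 1 was dropped and 43.8 when immature replicate 2 was, and in that last case it was called with TMM too.

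The fifth pair was well covered at both stages, with partners that protrude at their 5′ ends. The sequence uniq_1411900 had 39.6, 45.9 and 30.1 CPM in the mature libraries and 34.7, 11.9 and 10.9 CPM in the immature ones, with overlap. Its direction depended on the scale, with a log2 fold change of −1.64 with TMM (edgeR adjusted p = 0.0307) and 1.02 on library totals (edgeR adjusted p = 0.112), and its call was lost whichever library was left out. Its ratio of mean CPM was 2.01 in all and 3.37 without immature replicate 1. Its partner uniq_1425787 had 23.2, 17.9 and 14.5 CPM in the mature libraries and 10.1, 4.26 and 4.79 CPM in the immature ones, without overlap. It had a log2 fold change of −1.05 with TMM (edgeR adjusted p = 0.2) and 1.56 on library totals (edgeR adjusted p = 0.0137), so its direction turned as well.

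The 5 most abundant members called higher in mature testis all faced very rare partners. The leading one is shown with its most abundant partner, complementary stretch in capitals, because it repeats a unit of 4 bases and its partner was read 4 times in all.
uniq_5218759: tgtgAAATGAATGAATGAATGAATCgatc
uniq_5017841: taGATTCATTCATTCATTCATTTgttcagc
It had 885, 796 and 1450 CPM in the mature libraries and 54.3, 27.3 and 38.3 CPM in the immature ones (log2 fold change 2.06 ± 0.62, SE; edgeR adjusted p = 0.00438). Its 3 partners had 6 reads together, 5 in mature and 1 in immature testis. The next, uniq_4921673, had 693, 1071 and 898 CPM in the mature libraries and 34.0, 79.2 and 21.9 CPM in the immature ones, and its 7 partners had 14 reads in the whole table. The remaining 3, uniq_5011449, uniq_4490482 and uniq_4395940, averaged 491, 467 and 452 CPM in the mature libraries and 27.4, 27.4 and 27.4 CPM in the immature ones, and their partners had 3, 1 and 1 reads. No library of 1 group overlapped the other in any of the 5, which largely follows from choosing them among called sequences. Their adjusted p lay between 0.00438 and 0.049 (edgeR), and all 5 missed the threshold with a filter of 10 CPM in 3 libraries. Single libraries also decided the call of 4 of them. It was lost for uniq_4921673 without immature replicate 3, for uniq_5011449 without immature replicate 1 or 3 or mature replicate 2, for uniq_4490482 without immature replicate 2 or mature replicate 2 or 3, and for uniq_4395940 without immature replicate 3 or mature replicate 1 or 2. Without immature replicate 2 the ratio of mean CPM was 31.7 for uniq_4921673 (19.7 in all) and 34.9 for uniq_5011449 (17.9 in all), and without immature replicate 3 it was 26.1 for uniq_4490482 (17.0 in all).

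Of the 5 most abundant members called higher in immature testis, 3 had many partners. The leading one and the fourth are shown with their most abundant partners, complementary stretch in capitals.
uniq_222460: ttgcTGAGGAAGACTGGCCCTGAGCTA
uniq_193020: tgtTAGCTCAGGGCCAGTCTTCCTCA
uniq_321910: ACAGACTGTAGAAGATGCCAATAgctct
uniq_238060: TATTGGCATCTTCTACAGTCTGTggtt
The leading one, uniq_222460, had 19.1, 66.5 and 31.9 CPM in the mature libraries and 1401, 638 and 766 CPM in the immature ones (log2 fold change −7.22 ± 0.81, SE; edgeR adjusted p = 3.64e-18). Its ratio of mean CPM was 0.0419 in all and 0.0272 without mature replicate 2. Its 172 partners together had 119, 129 and 111 reads in mature and 69, 49 and 94 in immature libraries. So its partners had more reads than it did in mature replicate 1 and far fewer in every immature library. The fourth, uniq_321910, had 14.5, 23.8 and 13.4 CPM in the mature libraries and 310, 242 and 363 CPM in the immature ones, and is a longer form of uniq_224932. Its 123 partners had 58, 70 and 83 reads in mature and 256, 351 and 111 in immature libraries. The third, uniq_2330440, averaged 24.5 ± 4.16 CPM in the mature libraries and 373 ± 77.6 CPM in the immature ones (SD, n = 3 each), and its 85 partners had 268 reads, 10 of them in mature testis.

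The second and the fifth faced rare partners. The second, uniq_3256598, printed above with its single partner, had 109, 36.0 and 32.96 CPM in the mature libraries and 318, 751 and 395 CPM in the immature ones, and its ratio of 0.121 moved to 0.0706 without mature replicate 1. The fifth, uniq_3483765, averaged 12.0 ± 3.42 CPM in the mature libraries and 243 ± 74.1 CPM in the immature ones (SD, n = 3 each), and its 5 partners had 5 reads. None of the 5 overlapped between the groups, which again largely follows from their choice among called sequences. All 5 kept their call under each of the 12 alternative settings of the fit.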

How the data were processed

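Small RNA libraries of 3 mature and 3 immature testes were grouped by their titles. The authors deposited 1 table of raw read counts with a row for every sequence and a column for every library, per the file headers. Bowtie appears, unversioned, in a list taken per the submitters' processing notes. The genome build is not given in the sources used here, nor is the way piRNAs were called, and any filter in these steps decides which partners could be found. The table holds 17914237 reads. CPM is per 1000000 reads of a library's column, so 3 reads, the most that a count of 0 allows, stood for 0.659 to 2.17 CPM depending on the library.

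Partners were found with Python 3.11.15 and numpy 2.4.6 from all stretches of 20 nt on both strands, and the search was tested on simulated sequences. The distance between 5′ ends was taken from the offsets of the stretch in both sequences, and a 3′ overhang is the length minus that distance. Each distinct pair was counted once in every library that held both partners. Ties in the choice of the partner printed were broken by file order. Shares were compared over libraries by exact permutation tests with scipy 1.17.1. Single sequences were tested with edgeR 4.0.16 (R 4.3.3, filterByExpr defaults, TMM, quasi-likelihood), tested on simulated counts. DESeq2 1.42.0, library totals, upper quartile factors, other filters, stretches of 18 and 25 nt, sequences with at least 2 reads, thinning, leaving out each library and a replicate block were alternatives. Some alternatives were added after seeing the data. These were pairs of 5′ ends, members in pairs with fewer than 10 pairs on both sides, and the window shifted in the partner. The thinned shares of rarer partners and of single-read pairs were added as well. So were the distinct weighting of members against others and others without 18 or 19 nt stretches.

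The printed sequences are the 5 pairs with the highest mean CPM of the lesser partner, the leading pair with 2 nt overhangs, and the 5 most abundant members called in each direction, passing over any that shares a 20 nt stretch with one already taken. The sequences just outside the rule were named after their values were seen. Members and lists were chosen with earlier results of these data known. No 2 libraries of a group agreed within sampling noise, with a chi-square of 3.08 to 9.01 per sequence.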

Additional observations from a re-analysis of the deposited data

How the results depend on the processing

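Values are mature minus immature, in percentage points, unless stated. Lengths, the share of 2 nt overhangs and the mean 5′ distance kept their direction under every alternative run on them. A stretch of 18 nt reversed the share of reads in members (-0.326), A at position 10 (29.9) and the 10 nt excess (11.2), and this rule takes in the abundant sequences with 18 or 19 nt stretches, which held 8.44% of mature and 15.0% of immature reads. It also reversed the gaps between members and others in first U (-12.5) and GC (0.173), cut those in A at position 10 to 3.54 and in the excess to 0.851, and reversed the stage differences of the gaps in first U (14.5), A at position 10 (25.7) and the excess (13.3). Leaving those sequences out of the others gave gaps of -1.83 in first U and -0.266 in GC and a stage difference of 0.337 for the excess. Counting each distinct sequence once reversed GC (0.409), the gaps in first U (-7.14) and GC (0.813), and the stage differences of the gaps in first U (0.631) and GC (0.440). Members in pairs with fewer than 10 pairs on both sides reversed the share of reads (-5.42), GC (0.0736), the GC gap (0.253) and its stage difference (1.37). They gave an excess gap of 4.40 that missed the threshold. With sequences of at least 2 reads, the distinct share was 1.37, the share with a partner in the library 0.0123, the first U gap 5.60, now past the threshold, the GC gap -0.0609 and its stage difference 0.293. A 25 nt stretch gave a distinct share of 0.634, a GC gap of 0.140 and a stage difference of that gap of 0.443. Thinning gave a distinct share of 0.617, and pairs of 5′ ends a share with both U of -1.30. The window shifted in the partner gave a stage difference of the excess of 0.974, from excesses of 5.50 in mature and 4.52 in immature testis. The cause of these changes was not tested.

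Called members numbered 887 (179 higher in mature, 708 in immature testis) with a filter of 10 CPM in 3 libraries, 37578 (10762 and 26816) with at least 6 reads in all, 12306 (9335 higher in mature) on library totals, 8438 (5277 higher in mature) with upper quartile factors, and 2775 (664 and 2111) with a 25 nt stretch. Filters change which sequences are tested, and the stretch changes only which of the tested sequences are members. DESeq2 called 1618 higher in mature testis. With a replicate block 3408 were called, 261 of them higher in mature testis. Same-numbered libraries did not deviate together (r of 0.0344, -0.0879 and 0.0119), which gives no sign that the numbers pair libraries. With 3 libraries in each group these values cannot exclude a shared batch, so which fit is fairer is not settled.

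Leaving out 1 library gave 4854 to 6351 called members, 658 to 2331 higher in mature and 4020 to 4748 higher in immature testis. The gap in A at position 10 ranged from 21.2 to 27.9, that in GC from -0.574 to -0.474 and that in the excess from 10.04 to 11.9, and with 5 libraries the exact permutation test cannot go below p = 0.0625. The stage difference of the GC gap ranged from -0.170 to 0.0803. Among the comparisons of members with others over 6 libraries, whose test could pass, 17 alternative values kept direction and side of the threshold, 5 lost the call, 1 gained it and 7 reversed. In designs too small to pass or to keep a call, 22 values reversed and the others kept their direction, which says nothing of the threshold. Of the counts of calls, 27 stayed within 1.5 times and 18 moved further. Immature libraries were the shallower ones, which limits the partners that could be detected in them.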
